A study of Mus musculus with 8 samples.

Results

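The dystrophin glycoprotein complex was followed through 9 genes taken by symbol from the deposited table of 24980 gene symbols. They are Dmd and Utrn, Dag1, Sgca, Sgcb, Sgcd and Sspn, and Dtna and Sntb1, and all 9 were among the 17582 genes with enough counts to be tested. The 8 RNA libraries came from myogenic cells of the mouse and fell into 4 groups with 2 biological replicates per group. TF cells were teratoma-derived myogenic progenitors used as sorted. Per the study's methods, EGFP-labeled embryonic stem cells (ESCs), of the E14 line in its main experiments, had been injected into irradiated, cardiotoxin-injured tibialis anterior muscles of NSG-mdx4Cv mice, which are immunodeficient and lack dystrophin. The EGFP+ cells sorted from the teratomas were negative for CD31 and CD45 and positive for α7-integrin and VCAM-1. TE cells were such progenitors after culture on gelatin in expansion medium to passage 8. SF cells were satellite cells freshly isolated from adult muscle, and SE cells were satellite cells cultured to passage 8. Both teratoma-derived groups therefore come from ESCs that were grown in a dystrophin-deficient host, and the labels do not name their line, while both satellite cell groups come from adult animals whose strain, sex and age are not given in the sources used here. Totals lay between 11930881 and 21146554 counts per library, and levels are given as CPM, the count scaled to a common library size by TMM.

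Dystrophin is a long rod-shaped protein under the muscle fiber membrane. It binds cytoskeletal actin at one end and the transmembrane protein dystroglycan at the other, and dystroglycan in turn binds laminin in the basal lamina through sugar chains added by a dedicated set of enzymes. The sarcoglycans and sarcospan form a subcomplex in the membrane that stabilizes this link, and dystrobrevin and the syntrophins are cytoplasmic adaptors that bring signaling proteins to it. Utrophin is an autosomal relative of dystrophin that is found over the membrane of immature fibers and at the neuromuscular junction of mature ones. Loss of dystrophin causes Duchenne muscular dystrophy, and loss of a sarcoglycan causes a limb-girdle dystrophy.

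Marker genes were read in all libraries to check the labelled cell type. The 7 myogenic progenitor markers summed to between 1070 and 2060 CPM in all 8 libraries, with Pax7 at 78.2 CPM or more in each, but the list's genes moved in different directions with culture. Chodl was at 0 or 0.156 CPM in the expanded cells, Myf5 had means of 70.3 in TF and 93.1 in SF against 7 in TE and 6.41 in SE, and Vcam1 and Pax7 were also lower in the expanded libraries. Myod1 had means of 50.8 in TF and 454 in SF against 325 in TE and 703 in SE, and Itga7 was also higher in the expanded libraries. The 10 markers of differentiating muscle, such as Myog and the embryonic myosin gene Myh3, summed to 1030 and 578 CPM in TF, 7980 and 8410 in TE, 195 and 123 in SF, and 7360 and 15800 in SE. Markers of fibro-adipogenic cells summed to 4840 and 5460 CPM in TF and 1170 and 1980 in SF, against 13.6 to 81.6 in the expanded libraries. Most of the TF sum was Col15a1, at 3160 and 3820 CPM against 292 and 495 in SF. Pdgfra and Lum were also higher in both TF libraries than in SF, whereas Dcn, Ly6a and Dpt overlapped between TF and SF. Endothelial markers summed to 236 and 69.6 CPM in TF and 273 and 355 in SF, against 2.22 or less in the expanded libraries. Haematopoietic markers summed to 435 and 41.9 in TF, so that TF replicate 1 stood apart, and to 49.6 and 39.8 in SF, against 5.14 to 16.8 in the expanded libraries. Pericyte and smooth muscle markers lay between 1700 and 1950 CPM in 7 libraries and at 617 in SE replicate 1. In TE most of that sum was Acta2, at 1520 and 1510 CPM, while Rgs5 and Kcnj8 were at 0. Neural markers lay between 21.3 and 305 CPM, and pluripotency markers at 11 or less. Differentiation and other cell types thus moved with culture, and their part in the changes below was not tested. In such bulk libraries fewer cells of a type and less RNA per cell cannot be told apart.

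**Figure D1:**
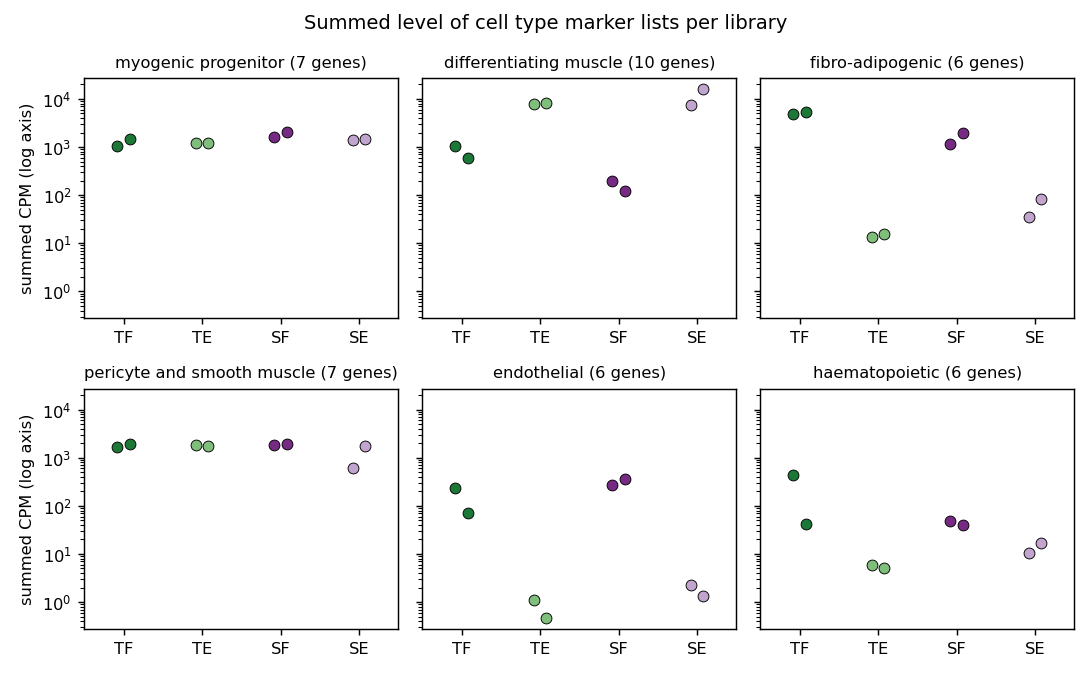
Summed CPM (log axis) of 6 marker lists in each of the 8 libraries, with 1 point per library. The progenitor list stays between 1070 and 2060 CPM, while the differentiating muscle list reaches 7360 CPM or more in every expanded library and the fibro-adipogenic list reaches 1170 CPM or more in every fresh one.

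All 8 libraries entered 1 model in edgeR, whose quasi-likelihood test compared the groups, and a gene was called at an adjusted p below 0.05 (Benjamini-Hochberg over all tested genes) and past a minimum fold change. Expansion of satellite cells (SE vs SF) was called for 9 of the 9 members, 5 higher and 4 lower, against 40.7% of all tested genes (20.9% higher and 19.8% lower). Expansion of teratoma-derived cells (TE vs TF) was called for 4 of 9, 3 higher and 1 lower, against 26.1% of all genes (9.86% higher and 16.2% lower). The members were chosen with earlier results of these data known, so their shares are no test of the complex as a whole. Of its 11 other subunits and partners, read below, 45.5% were called in SE vs SF and 54.5% in TE vs TF. Between the fresh groups (TF vs SF) 4 of 9 members were called, 2 higher and 2 lower in TF, against 24.2% (15.1% higher and 9.13% lower). With libraries scaled by median ratios instead, the split over all genes went from 2655 higher and 1606 lower to 2110 and 1943 in TF vs SF, and from 3677 and 3475 to 3064 and 3958 in SE vs SF, with the members' counts as before. Between the expanded groups (TE vs SE) only Sgcd was called, higher in TE, against 7.21% of all genes (3.15% higher and 4.07% lower). That count was 4 with DESeq2, 0 without TE replicate 2, 3 without SE replicate 1, and 2 without SE replicate 2, either TF replicate or either SF replicate. The median log2 fold change of the members was 1.65 in SE vs SF and 0.53 in TE vs TF, beside -0.23 and -0.18 for all tested genes. Between TE and SF, set side by side only to order the levels, 7 of 9 were called, 5 higher and 2 lower, against 46.6% (23% higher and 23.6% lower). The libraries of the groups did not overlap for 9 of 9 members in SE vs SF and 8 in TE vs TF, against 72.4% and 69.6% of all genes. They did not overlap for 6 in TF vs SF, 5 in TE vs SE, 5 in TF vs SE and 9 in TE vs SF, against 64.8%, 50%, 63.8% and 77.9%, so the counts for TF vs SF, TE vs SE and TF vs SE are near the background.

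**Figure D2:**
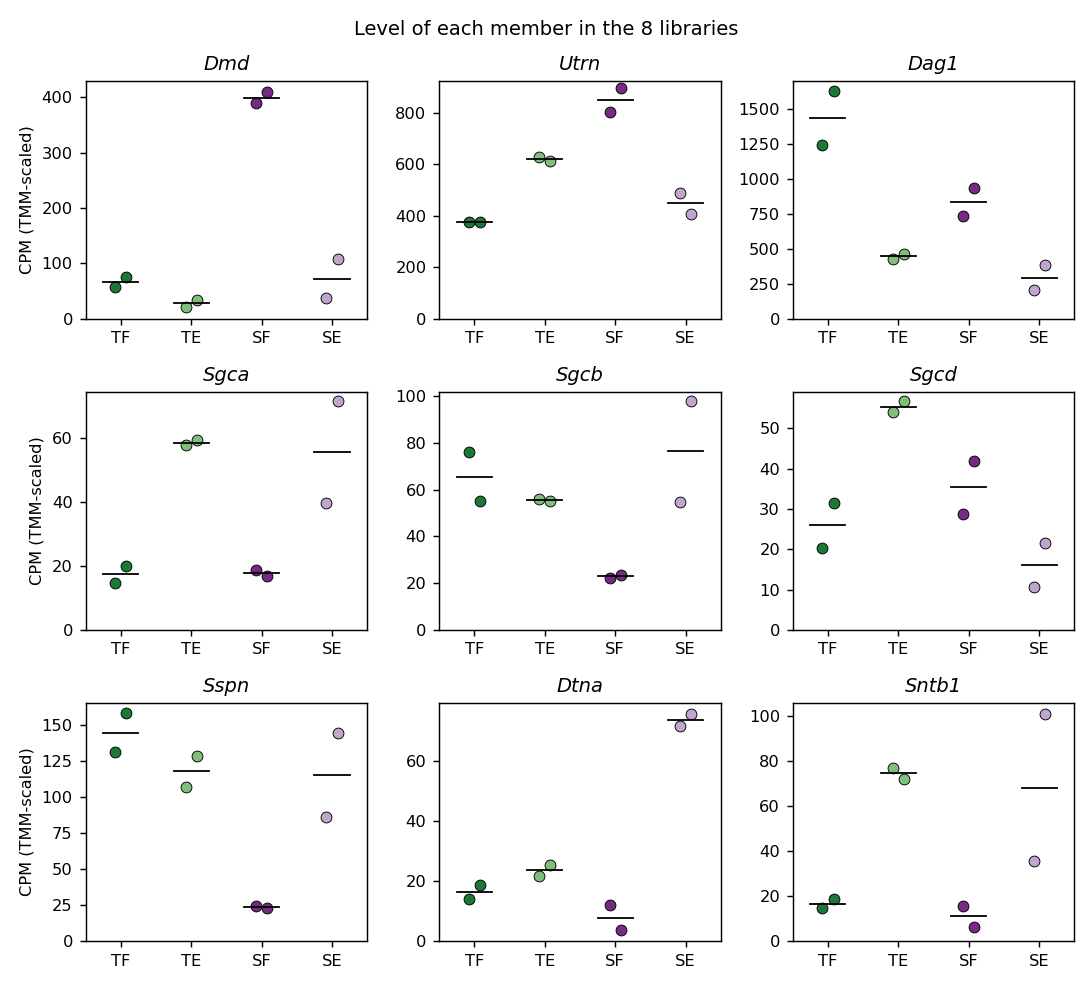
CPM on TMM-scaled library sizes of the 9 members in TF, TE, SF and SE, with 1 point per library and a line at the mean of 2. Dmd stands at 389 and 410 CPM in SF and at 107 or less elsewhere, whereas Sspn stands at 24.4 and 22.6 in SF and at 86.1 or more elsewhere.

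Dmd, the dystrophin gene, lies on the plus strand of chromosome X (chrX:82948870-85206141, GRCm38, GENCODE M21) and was highest in fresh satellite cells. It had 389 and 410 CPM in SF, 57.4 and 75.2 in TF, 21.8 and 33.9 in TE, and 36.6 and 107 in SE. The SF libraries lay above the other 6, and TE lay below TF without overlap. Dmd was lower in SE than in SF (log2 fold change -2.47, standard error 0.439, adjusted p = 0.00174), and TF was also lower than SF (-2.59, standard error 0.442, adjusted p = 0.00313). The SE replicates were far apart, and the change in SE vs SF was -1.87 without SE replicate 1 and -3.43 without SE replicate 2. TE had a mean of 27.9 CPM against 66.3 in TF, a change of -1.25 on the log2 scale that missed the threshold (standard error 0.428, adjusted p = 0.0574) but passed with DESeq2 (adjusted p = 0.007). Between TE and SE the log2 difference was -1.37 (standard error 0.428, adjusted p = 0.0967), and it was -0.39 without SE replicate 2 and -1.94 without SE replicate 1, which was then called (adjusted p = 0.000225). It was also called with all libraries under DESeq2 (adjusted p = 0.00908), with no filter on low counts (7.2e-07) and with the replicate block (0.0422). In the order SF, SE, TF and TE, the neighbors SF and SE differed, whereas SE and TF (adjusted p = 0.87) and TF and TE were not called different. The mean of SF was 14.3 times that of TE, the widest range among the members.

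The Dmd gene has several starts, among them an upstream muscle start for full-length dystrophin and a start near the 3′ end of the gene for a short dystrophin made in most tissues. The deposited table has 1 value per gene symbol, so the levels above sum over starts and cannot say which was used. The 250 bases before both starts listed by RefSeq (GRCm38.p6, plus strand) are shown because they are the control regions that this sum leaves mixed, with each E-box (CANNTG, the letters bound by MyoD-type factors, searched on both strands) in capitals.
Dmd, chrX:82948620-82948869: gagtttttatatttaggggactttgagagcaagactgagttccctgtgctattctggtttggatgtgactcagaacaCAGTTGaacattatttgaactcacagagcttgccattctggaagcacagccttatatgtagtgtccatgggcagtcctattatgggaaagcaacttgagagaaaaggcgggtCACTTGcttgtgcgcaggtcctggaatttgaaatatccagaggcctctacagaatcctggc
Dmd, chrX:85048045-85048294: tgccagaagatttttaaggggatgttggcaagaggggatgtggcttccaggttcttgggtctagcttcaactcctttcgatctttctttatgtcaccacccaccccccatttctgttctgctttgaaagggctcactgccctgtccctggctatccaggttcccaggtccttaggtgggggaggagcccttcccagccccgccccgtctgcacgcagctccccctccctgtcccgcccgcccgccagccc
The upstream window held 2 E-boxes, a CArG box and a MEF2 site, with 45.2% G or C. A CArG box was found in 1.47% and a MEF2 site in 2.92% of the 32817 windows of this length before RefSeq starts, and an E-box in 66.2%. The downstream window held none of these and had 60% G or C, with 3 GC boxes (GGGCGG, both strands), a motif present in 32.7% of windows.

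Utrn, the utrophin gene, lies on the minus strand of chromosome 10 (chr10:12382188-12869365). It had 374 and 375 CPM in TF, 629 and 614 in TE, 803 and 897 in SF, and 490 and 406 in SE. The change with culture had opposite directions in the 2 origins. It was higher in TE than in TF (log2 fold change 0.73, standard error 0.187, adjusted p = 0.0177), and lower in SE than in SF, with -0.92 (standard error 0.187, adjusted p = 0.00357). The difference between these effects was 1.65 (standard error 0.264, adjusted p = 0.00352, edgeR's test of the interaction). The rise in TE was no longer called when any TF or TE library was left out (adjusted p between 0.114 and 0.148), at log2 fold changes of 0.74 to 0.77. TF was lower than SF (-1.18, standard error 0.188, adjusted p = 0.00222). In the order SF, TE, SE and TF, no neighbors were called different, with adjusted p-values of 0.0705, 0.191 and 0.338. SF and TE, however, were called different under median-ratio size factors (log2 fold change of TE over SF -0.67, adjusted p = 0.0132).

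The count of Utrn divided by that of Dmd within a library does not depend on how libraries are scaled. It was 2.07 and 2.19 in SF, 6.52 and 4.98 in TF, 28.8 and 18.1 in TE, and 13.4 and 3.79 in SE. The mean log2 ratio was 1.09 ± 0.06 in SF, 2.51 ± 0.27 in TF, 4.51 ± 0.47 in TE and 2.83 ± 1.29 in SE (SD, n = 2 each). TE had the highest ratio in both its libraries and SF the lowest, while the SE libraries lay on either side of TF. The ratio is not corrected for transcript length, so it compares libraries and not the amounts of the 2 transcripts. No test was run on the ratio.

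**Figure D3:**
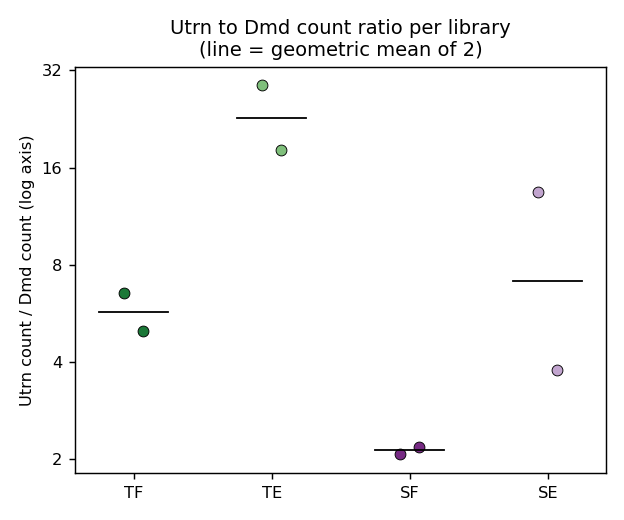
Utrn count divided by Dmd count in each library (log axis), with 1 point per library and a line at the geometric mean of 2. TE sits at 18.1 and 28.8, above the 6 other libraries, and SF sits at 2.07 and 2.19, below them.

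Dag1, which encodes both subunits of dystroglycan (chr9:108204634-108263958, minus strand), fell with culture in both origins. It had 1240 and 1630 CPM in TF, 429 and 462 in TE, 735 and 937 in SF, and 202 and 385 in SE. Every expanded library was below every fresh one. The log2 fold change was -1.69 in TE vs TF (standard error 0.308, adjusted p = 0.00335) and -1.51 in SE vs SF (standard error 0.307, adjusted p = 0.00365), and the difference between these effects was -0.18 (standard error 0.425, adjusted p = 0.865). The order was TF, SF, TE and SE. TF and SF differed by a log2 fold change of 0.78 that missed the threshold (adjusted p = 0.0897), although it passed without SE replicate 1 (0.0166) or SE replicate 2 (0.012). TE and SE, whose libraries did not overlap, were not called different either (log2 difference 0.60, standard error 0.301, adjusted p = 0.318), but without SE replicate 2 that difference was 1.14 (adjusted p = 0.0143). SF and TE were called different (adjusted p = 0.0334), a call that was lost without either TE replicate or SF replicate 2.

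Sgca encodes α-sarcoglycan (chr11:94962791-94976327, minus strand), the sarcoglycan most restricted to striated muscle, and it rose with culture in both origins. It had 14.8 and 19.9 CPM in TF and 18.6 and 16.8 in SF, against 57.9 and 59.4 in TE and 39.7 and 71.6 in SE. The fresh and expanded libraries did not overlap, and within each pair the origins did. TE was 3.38 times TF (log2 fold change 1.75, standard error 0.308, adjusted p = 0.0027) and SE was 3.15 times SF (1.65, standard error 0.306, adjusted p = 0.00218). The difference between origins was -0.02 in fresh cells and 0.08 in expanded cells on the log2 scale (standard errors 0.304 and 0.295). The first of these turned positive without TF replicate 1 (0.18) and the second turned negative without SE replicate 1 (-0.28), so neither has a settled direction.

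Sgcb, for β-sarcoglycan (chr5:73632749-73647790, minus strand), and Sspn, for the tetraspan protein sarcospan (chr6:145931641-145965223, plus strand), had another pattern, with a low level in fresh satellite cells. Sgcb had 22.3 and 23.4 CPM in SF, against 75.9 and 54.9 in TF, 56 and 54.9 in TE, and 54.7 and 97.9 in SE. Sspn had 24.4 and 22.6 CPM in SF, against 131 and 158 in TF, 107 and 128 in TE, and 86.1 and 144 in SE. Both SF libraries lay below the other 6 for both genes. The SE mean was 3.34 times that of SF for Sgcb (log2 fold change 1.74, standard error 0.292, adjusted p = 0.00126) and 4.89 times for Sspn (2.29, standard error 0.265, adjusted p = 0.000139). TF was above SF by 1.52 for Sgcb (standard error 0.291, adjusted p = 0.00556) and by 2.62 for Sspn (standard error 0.268, adjusted p = 0.000269). Culture of the teratoma-derived cells gave log2 fold changes of -0.24 and -0.30, which were not called (adjusted p = 0.567 and 0.411). The effects of culture differed between origins, by -1.98 for Sgcb (standard error 0.405, adjusted p = 0.0112) and -2.58 for Sspn (standard error 0.362, adjusted p = 0.00195). Neighbors among SE, TF and TE were not called different for either gene. GENCODE lists an antisense gene, Sspnos, over exons of Sspn. It is not a row of the table, and whether the counting used strand is not given in the sources used here.

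Sgcd, for δ-sarcoglycan (chr11:46896253-47988969, minus strand), had a different pattern. It had 20.3 and 31.5 CPM in TF, 54.1 and 56.7 in TE, 28.8 and 41.9 in SF, and 10.5 and 21.6 in SE. TE lay above and SE below the fresh libraries of their origin. The fall in SE vs SF was -1.14 (standard error 0.373, adjusted p = 0.0347). The TE vs TF change of 1.10 missed the threshold (standard error 0.371, adjusted p = 0.055) but passed with DESeq2 (adjusted p = 0.0429). The effects of culture differed, by 2.24 (standard error 0.526, adjusted p = 0.0208), and TE was 3.45 times SE (log2 1.79, standard error 0.377, adjusted p = 0.0204). These calls depended on single libraries. The fall in SE was lost without SE replicate 1 (-0.69, adjusted p = 0.164) or SF replicate 2 (-0.82, adjusted p = 0.156), and was -1.74 without SE replicate 2. Leaving out TE replicate 2 ended the call against SE (adjusted p = 0.06), and leaving out SE replicate 2 moved it to 2.40. The interaction missed the threshold without TF replicate 1 (adjusted p = 0.0502) and was 2.84 without SE replicate 2. In the order TE, SF, TF and SE no neighbors were called different (adjusted p = 0.166, 0.422 and 0.209). The means of the 3 sarcoglycan genes among the members had 3 orders over the 4 groups, in which most neighbors were not called different.

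The 250 bases before the RefSeq starts of Sgca and Sgcb (GRCm38.p6, minus strand) are shown side by side because these subunits of the same subcomplex had different patterns, again with E-boxes in capitals.
Sgca, chr11:94976328-94976577: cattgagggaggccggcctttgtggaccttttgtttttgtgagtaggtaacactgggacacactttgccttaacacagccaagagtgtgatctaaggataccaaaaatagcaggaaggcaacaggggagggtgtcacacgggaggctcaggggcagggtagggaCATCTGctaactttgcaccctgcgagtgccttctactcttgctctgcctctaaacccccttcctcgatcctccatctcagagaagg
Sgcb, chr5:73647738-73647987: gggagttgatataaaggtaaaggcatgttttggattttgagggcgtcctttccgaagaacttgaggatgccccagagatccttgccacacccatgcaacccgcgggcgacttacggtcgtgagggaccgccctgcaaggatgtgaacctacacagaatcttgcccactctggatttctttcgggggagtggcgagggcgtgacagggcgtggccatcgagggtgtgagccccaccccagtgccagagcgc
The Sgca window held 1 E-box, 86 bases before the start. The Sgcb window held no CANNTG but had 1 GC box and a match to the TATA box letters (TATAAA, 12.4% of windows), 241 bases before the start. No CArG box or MEF2 site was in either window. These matches describe letters, not bound sites, and RefSeq windows were also found for Utrn, Dag1, Sgcd and Sspn, so 7 of the 9 members were matched. The windows of Utrn and Sgcd and the downstream windows of Dmd and Sspn lie inside the GENCODE span of their gene, not before its outermost start. The Sgcb window, the upstream window of Sspn and the downstream window of Dag1 lie partly inside it.

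Dtna encodes α-dystrobrevin, which binds dystrophin and the syntrophins, and was highest in expanded satellite cells. It had 71.7 and 75.5 CPM in SE, against 21.5 and 25.4 in TE, 14 and 18.6 in TF, and 11.8 and 3.57 in SF. The SE libraries lay above the other 6. SE was 9.59 times SF (log2 fold change 3.26, standard error 0.478, adjusted p = 0.000576), and this was 4.36 without SF replicate 1 and 2.66 without SF replicate 2. In TE vs TF the change was 0.53 (standard error 0.441, adjusted p = 0.404). The changes with culture differed between the origins, by -2.74 (standard error 0.634, adjusted p = 0.0195), or -3.81 and -2.13 without SF replicate 1 and SF replicate 2. The difference of -1.65 between TE and SE missed the threshold (standard error 0.443, adjusted p = 0.0555), but it was called with DESeq2 (adjusted p = 0.00907). It was also called in 5 of the 8 fits that left out a library, those without either TF replicate, either SF replicate or SE replicate 1. In the order SE, TE, TF and SF the other neighbors, TE and TF (0.404) and TF and SF (0.113), were not called either, although TF was called above SF without SF replicate 1 (2.17, adjusted p = 0.00508). An antisense gene, Gm47898, overlaps exons of Dtna in GENCODE M21 and is not a row of the table.

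Sntb1, for β1-syntrophin (chr15:55636388-55906949, minus strand), an adaptor for ion channels and signaling enzymes, rose with culture in both origins. It had 14.5 and 18.7 CPM in TF and 15.7 and 6.39 in SF, against 77 and 72 in TE and 35.5 and 101 in SE. The fresh and expanded libraries did not overlap. The log2 fold change was 2.16 in TE vs TF (standard error 0.509, adjusted p = 0.0122) and 2.63 in SE vs SF (standard error 0.52, adjusted p = 0.00316). The latter was 1.70 without SE replicate 2, 3.22 without SE replicate 1 and 3.41 without SF replicate 1. Between origins the log2 difference was 0.59 in fresh cells (standard error 0.505) and 0.13 in expanded cells (standard error 0.481), neither called (adjusted p = 0.441 and 0.969). The first was 1.36 without SF replicate 1 and 0.10 without SF replicate 2, and the second was -0.43 without SE replicate 1 and 1.07 without SE replicate 2. In the order TE, SE, TF and SF, the neighbors SE and TF were called different (adjusted p = 0.0172), a call that was lost without TF replicate 1 or SE replicate 2.

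**Figure D4:**
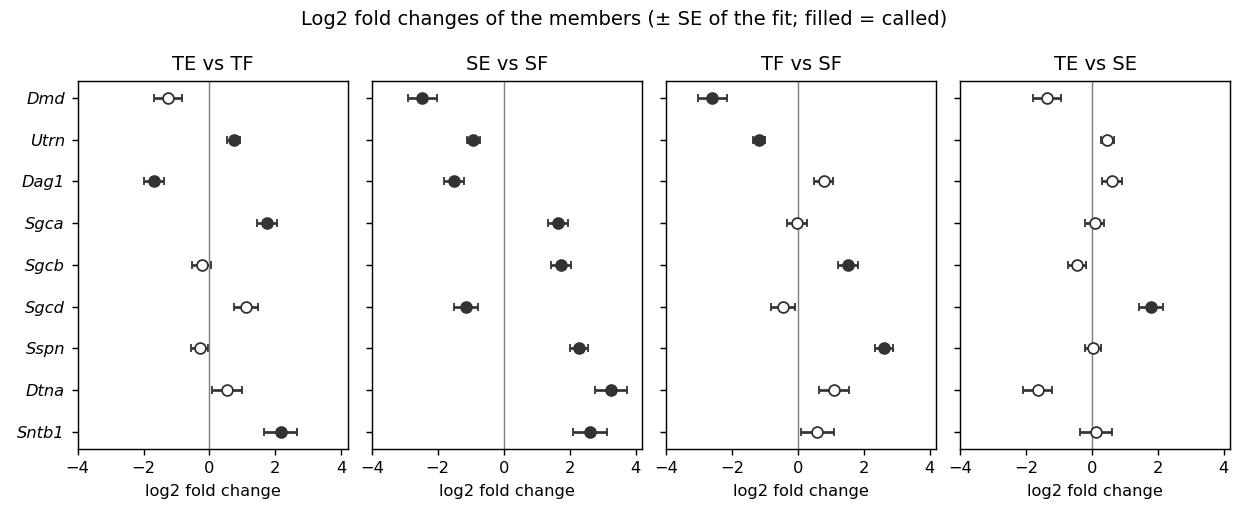
Log2 fold changes of the 9 members in 4 comparisons, with bars for the standard error of the fit and filled points for genes called at an adjusted p below 0.05 and past the minimum fold change. All 9 points are filled in SE vs SF and only Sgcd is filled in TE vs SE.

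Whether the change with expansion differed between the 2 origins was tested by the interaction, the TE vs TF change minus the SE vs SF change. It was called for 5 of the 9 members, which were chosen with earlier results known, against 14.3% of all tested genes. Among the 11 other subunits and partners of the complex the share was 18.2%. Utrn (1.65) and Sgcd (2.24) had the higher change in teratoma-derived cells, against 4.7% of all genes called in this direction. Sgcb (-1.98), Sspn (-2.58) and Dtna (-2.74) had the lower one, against 9.62%. For Dmd (1.22, standard error 0.595, adjusted p = 0.21), Dag1, Sgca and Sntb1 no difference was called. The value of Dmd was 2.19 without SE replicate 2, which was then called (adjusted p = 0.000923). The estimates of Dag1, Sgca and Sntb1 changed sign when single libraries were left out, and the adjusted p of these 3 genes was 0.21 or more under every alternative tried.

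**Figure D5:**
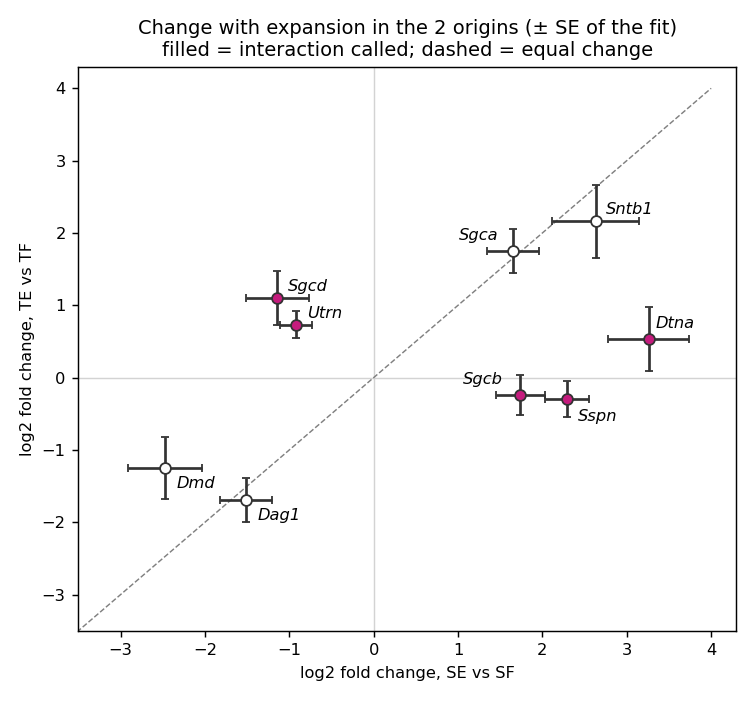
Log2 fold change with expansion in teratoma-derived cells (TE vs TF) against that in satellite cells (SE vs SF) for the 9 members, with bars for the standard error of the fit and a dashed line where both changes are equal. The 5 filled genes, called for the interaction, lie off the line, Utrn and Sgcd above it and Sgcb, Sspn and Dtna below it.

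TF, TE and SF were each also set against SE, and these comparisons share the SE libraries. Against SE, TF was called for 4 of 9 members (23.6% of all tested genes, 14.5% higher and 9.16% lower), higher for Dag1 (log2 2.29, standard error 0.315, adjusted p = 0.000695) and lower for Sgca (-1.68, standard error 0.307, adjusted p = 0.00373), Dtna (-2.18, standard error 0.454, adjusted p = 0.00735) and Sntb1 (-2.03, standard error 0.507, adjusted p = 0.0172). The call for Sntb1 was lost without SE replicate 2 (-1.10, adjusted p = 0.0721) or TF replicate 1 (adjusted p = 0.0578), and the value was -2.62 without SE replicate 1. Dmd, at -0.12 and not called, was called higher in TF without SE replicate 2 (0.85, adjusted p = 0.0475), as were Sgcd (1.30, adjusted p = 0.0236) and Sspn (0.74, adjusted p = 0.0414). Beside these values, TE vs SE gave 0.60 for Dag1, 0.08 for Sgca, -1.65 for Dtna and 0.13 for Sntb1. SF vs SE is the reverse of the satellite cell comparison above, so Dmd, Utrn, Dag1 and Sgcd were higher and the other 5 members lower in SF than in SE.

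The replicates of SE stood apart more than those of other groups. The SD over the mean had a median of 40.5% over the 9 members in SE, 19.1% in TF, 7.82% in SF and 4.68% in TE. In 7 of 9 members SE replicate 2 had over 1.5 times the level of SE replicate 1, up to 2.92 times for Dmd and 2.85 times for Sntb1, while Utrn (0.829) and Dtna (1.05) did not. The summed markers of differentiating muscle were 2.15 times as high in SE replicate 2, and their part in this spread was not tested. In SF the reverse was seen for Dtna and Sntb1, at 0.303 and 0.407 times in replicate 2, and for no other member beyond 1.5 times.

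Genes with a pattern over the libraries most like that of Dmd were ranked by the root mean square difference of centered log2 CPM over the 8 libraries, among 11460 tested genes with a mean of at least 5 CPM and without the other members. The nearest were Dnaja4 (0.34), Camta1 (0.37), Rimbp2 (0.41), Cacna1a (0.41) and 1700007P06Rik (0.44). Dnaja4, a co-chaperone gene, had 132 and 127 CPM in SF, 33.7 and 30.6 in TF, 9.38 and 11.3 in TE, and 21.3 and 54.9 in SE. Cacna1a, a calcium channel gene, had 35.3 and 49.3 CPM in SF and at most 9.17 in the others. Among the members Utrn and Dag1 were nearest to this profile, with differences of 1.31 and 1.39 and with 18.6% and 23.2% of the 11460 genes nearer to Dmd than they were. For the other 6 members the difference was between 1.66 and 2.55, with 43.4% to 91.2% of genes nearer.

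Other genes of the complex and its surroundings were read from a list of 32, all of them tested. In SE vs SF 12 of the 32 were called, 8 higher and 4 lower, and in TE vs TF 12 were called, 4 higher and 8 lower, shares of 37.5% each beside 40.7% and 26.1% of all genes. Under median-ratio size factors the splits were 7 higher and 6 lower, and 2 higher and 8 lower. Between fresh cells 9 were called, 7 higher and 2 lower in TF (5 and 3 under median-ratio size factors), and between expanded cells 1, shares of 28.1% and 3.12% beside 24.2% and 7.21% of all genes. The interaction was called for 5, 2 higher and 3 lower, 15.6% beside 14.3%. The TE vs TF count was 6 without TF replicate 1 or TE replicate 1 and 4 without TE replicate 2, the count between fresh cells was 5 without TF replicate 2, and that of the interaction was 1 without TF replicate 1 or either TE replicate. The median log2 fold change of the list was 0.11 in SE vs SF and -0.31 in TE vs TF, or -0.38 in the latter with genes at 0 set to the limit of 3 counts per library.

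Among the 11 other subunits and partners, Cav3, for the muscle caveolin that binds the complex, rose by 2.29 on the log2 scale in TE vs TF and by 4.87 in SE vs SF (adjusted p = 0.0396 and 0.00131). The widely expressed Sgce, for ε-sarcoglycan, went the other way in teratoma-derived cells, from 82 and 103 CPM in TF to 38.8 and 29.2 in TE (-1.45, adjusted p = 0.0046). It was also the single gene of the list called between the expanded groups, at 13.9 and 18.4 CPM in SE (1.08, adjusted p = 0.0497). That call was lost without either TF or either TE replicate, without Rn45s in the library sizes and with only the 2 groups fitted. Sntb2, for β2-syntrophin, fell in both cultures, by 1.01 in TE vs TF and by 2.89 in SE vs SF (adjusted p = 0.0431 and 0.000151), and the smaller fall in TE was called for the interaction (1.88, adjusted p = 0.0226). Drp2 was the other gene here called for the interaction (1.11, adjusted p = 0.0182). Nos1, for the neuronal nitric oxide synthase that α-syntrophin anchors, fell by 3.23 and by 2.92 (adjusted p = 0.00267 and 0.00274), to between 1.04 and 2.12 CPM. Sntg2, for γ2-syntrophin, had 2.52 and 5.42 CPM in TF and 0 counts in both TE libraries, at least 25.9-fold lower by the TE mean of the limit of 3 counts per library. Drp2, a dystrophin-related gene known from Schwann cells, fell by 1.45 in SE vs SF (adjusted p = 0.000226). In TE vs TF the change of Drp2 was -0.34 and was not called (adjusted p = 0.188). Drp2 stood at 84.7 and 91.4 CPM in TE and at 72.8 and 90.4 in SE. The Schwann cell markers summed to between 67.4 and 82.9 CPM in the fresh libraries and to less in every expanded one. Their part in the level of Drp2 was not tested.

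Among the 5 matrix ligands and filament links, Lama2, which encodes the laminin α2 chain that dystroglycan binds, fell in both cultures. It had 1080 and 1370 CPM in TF, 221 and 181 in TE, 465 and 657 in SF, and 204 and 179 in SE, log2 fold changes of -2.61 and -1.55 (standard errors 0.247 and 0.239, adjusted p = 7.34e-05 and 0.000768). Agrn (agrin) and Hspg2 (perlecan), heparan sulfate proteoglycans that also bind dystroglycan, were lower in TE than in TF by -0.91 and -1.28 (adjusted p = 0.00509 and 0.00269). In SE vs SF neither was called, and the interaction was called for Agrn (-1.28, adjusted p = 0.00954). TF exceeded SF for all 3 matrix genes, by 1.13, 1.94 and 1.12 (adjusted p = 0.0084, 0.00021 and 0.00677). The fibro-adipogenic markers summed higher in both TF libraries than in SF, mostly through Col15a1, while Dcn, Ly6a and Dpt overlapped between TF and SF. Their sums were far lower in the expanded libraries, and the part of these markers in the matrix genes was not tested. Des, for the muscle intermediate filament desmin, rose by 1.44 and 1.01 (adjusted p = 0.00154 and 0.006), and Plec, for its linker plectin, by 0.77 in SE vs SF (adjusted p = 0.0336). In TE vs TF the change of Plec was 0.76 and missed the threshold (adjusted p = 0.0513).

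Of the 16 enzymes and factors of dystroglycan glycosylation, 12.5% were called in TE vs TF and 25% in SE vs SF, beside 26.1% and 40.7% of all genes. Pomgnt1, Pomt1 and Rxylt1, like Des and Plec above, were named after their values were seen. In TE vs TF 2 of 16 were called, Pomgnt1 higher (0.81, adjusted p = 0.0484) and Ispd, which makes the ribitol donor, lower (-1.49, adjusted p = 0.0376). In SE vs SF 4 were called, all higher, namely B4gat1 (1.77, adjusted p = 0.00212), Pomt1 (1.31, adjusted p = 0.0208), Rxylt1 (1.21, adjusted p = 0.0123) and Pomgnt1 (1.08, adjusted p = 0.00961). The effect of culture differed between origins for B4gat1 (-2.19, adjusted p = 0.0114) and Ispd (-2.51, adjusted p = 0.0293). Pomt1 had 18.7 and 18.4 CPM in SE and 8.21 and 6.66 in SF. Dag1 itself fell in both cultures. The share of enzymes called higher in SE vs SF, 25%, was near the 20.9% of all genes called higher. In TE vs TF the 1 higher and 1 lower of 16 stood beside 9.86% and 16.2% of all genes. These counts therefore do not set the enzymes apart from other genes.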

How the data were processed

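RNA of 8 libraries was made with a stranded total RNA kit. The values deposited by the authors are estimated counts per gene symbol, with CASAVA, kallisto 0.44.0 and the builds GRCm38 and mm10 named in the submitters' processing notes. The annotation, the summing to genes and the strand setting are not given in the sources used here. Of the values, 74.4% to 84.4% were whole per library, and all were rounded to whole counts. Every column matched a sample label, and groups were taken from the labels.

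Genes were filtered with filterByExpr in edgeR 4.0.16 (R 4.3.3), which kept 17582 of 24980, and libraries were scaled by TMM. A quasi-likelihood model was fitted over the 4 groups, with 4 residual degrees of freedom and a common dispersion of 0.233. Standard errors were derived from the log2 fold change and its F statistic. Calls needed an adjusted p below 0.05 (Benjamini-Hochberg over all tested genes) and a fold change above 1.25. DESeq2 1.42.0, median-ratio size factors, libraries without Rn45s (7.99% to 21.3% of counts), no filter, 2-group fits, the replicate number as a block and leaving out each library were alternatives. Limits for counts of 0 were 3 counts per library, 0.141 to 0.252 CPM, and cover counting error only. The study calls the replicates biological, but nothing ties them to separate animals or cultures, so p-values measure the spread between these samples.

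Text names all members, in each comparison the up to 6 called genes of the wider list with the largest log2 fold change, and the 5 genes most like Dmd. A gene of the wider list that this rule names is not reported here. The members and lists were chosen with earlier results of these data known. On data simulated for TE vs TF over 17582 genes, 35% of genes changed 3-fold and 57% of those changed 8-fold were recovered, with 6.12% false calls.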

Additional observations from a re-analysis of the deposited data

Results flagged for a closer look

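For 5 of the 9 members the change with expansion differed between teratoma-derived and satellite cells by edgeR's test of the interaction, the TE vs TF log2 fold change minus the SE vs SF one. The difference was 1.65 for Utrn, which was higher in TE than in TF and lower in SE than in SF, and 2.24 for Sgcd. It was -1.98 for Sgcb, -2.58 for Sspn and -2.74 for Dtna, each of which rose in SE vs SF and was not called in TE vs TF. Across all tested genes 14.3% were called for this interaction, and 18.2% among the 11 other subunits and partners of the complex. The value of Sgcd missed the threshold without TF replicate 1 (adjusted p = 0.0502).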

How the results depend on the processing

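Of 873 member fold changes refitted under the alternatives, 793 kept their direction and side of the threshold, 15 lost a call, 45 gained one and 20 changed sign. In TE vs SE the count of members called, 1 in the report, was 3 with no filter on low counts, 4 with DESeq2, 2 with only the 2 groups compared and 2 with the replicate block, and 0 to 3 when single libraries were left out. That of the wider list, also 1, was 0 without Rn45s, 3 with no filter, 5 with DESeq2, 2 with the block and 0 to 3 without single libraries. Leaving out single libraries gave 4 to 13 wider-list calls in TE vs TF, 5 to 11 in TF vs SF and 1 to 7 for the interaction. Over all genes, TE vs SE called 1268, against 2260 with no filter and 2122 with DESeq2. The fall of Sgcd in SE vs SF was not called with only the 2 groups (-1.12, adjusted p = 0.0805). The cause was not tested.

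Between groups, correlations of deviations for libraries of the same replicate number lay between -0.02 and 0.07. They cannot show whether these numbers pair the samples, because a weak shared origin could go unseen. With the number as a block, 6 members and 4321 of all genes were called in TE vs TF. The main fit called 4 members and 4581 genes there. Dmd in TF vs SE, not called in either fit, went from -0.12 to 0 with the block.

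The other changes of sign came from leaving out a library. The ranges were -0.71 to 0.85 for Dmd in TF vs SE. In TE vs SE they were -0.28 to 0.56 for Sgca, -0.81 to 0.02 for Sgcb, -0.43 to 1.07 for Sntb1 and -0.28 to 0.45 for Sspn. They were -0.26 to 0.18 for Sgca in TF vs SF, -0.42 to 0.04 for Sgcb in TE vs TF, and -0.60 to 0.25 for Sgcb and -0.02 to 0.74 for Sspn in TF vs SE. For the interaction they were -0.56 to 0.35 for Dag1, -0.26 to 0.58 for Sgca and -1.22 to 0.47 for Sntb1. Where a group keeps 1 library, that library is assumed to vary like the others. Under median-ratio size factors the all-gene median shifted by -0.19 in SE vs SF, -0.16 in TF vs SF and 0.14 for the interaction.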
